A study of Caenorhabditis elegans with 4 samples.

Results

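The genes described here are 8 effector genes of the Caenorhabditis elegans intestine, namely ges-1, pho-1, ifb-2, act-5, asp-1, cpr-6, erm-1 and opt-2. They were chosen by symbol, out of 19971 protein-coding genes on the 6 chromosomes, and each was examined for binding regions of the transcription factor UNC-62 in embryos. The table of genes held 7 of them under these symbols. It lists no opt-2, and the values given for opt-2 are those of pept-1, known as the later symbol of the same gene. Of 7964 regions in the list for the whole series, 4 lay in the windows of these genes.

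Chromatin immunoprecipitation followed by sequencing (ChIP-seq) had been done on UNC-62 ChIP samples, in 2 replicates, each with an Input sample of unselected chromatin, also in 2 replicates. All 4 samples were hermaphrodite embryos of strain OP600. These worms carry the unc119(ed3) mutation and the transgene wgIs600, introduced by bombardment, which holds unc-62 fused to TY1, EGFP and FLAG tags together with unc119. Worms were raised at 20 °C and crosslinked with 2% formaldehyde, and the ChIP used antibodies to GFP. Lists of regions from the ChIP replicates and 1 list for the series were analysed, and the Input samples entered only through the calling by the authors, if at all. The transgene is said in the labels to follow the expression pattern of unc-62 itself. Whole embryos were used, so a region cannot be assigned to the intestine or to any other tissue.

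UNC-62 is a homeodomain protein of the MEIS class, which acts together with PBC homeodomain proteins and often with Hox proteins. The intestine descends from a single founder cell of the embryo, and GATA factors such as ELT-2 are known to switch on its effector genes. These effectors build the brush border facing the gut lumen, digest food and take it up. UNC-62 is also known from adult worms, where it acts on yolk protein genes in the intestine.

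Regions were called with PeakSeq on the WS220 genome build, per the file headers. Each carries 1 deposited value, read here as a p-value or q-value, where a smaller value means a stronger call. Replicate 1 had 7782 regions and replicate 2 had 3138, with values up to 0.00999 and 0.000998, so the lists differ in their limits and in length. The depth of the libraries is unknown. A gene without a region in a list is therefore one where no region was detected, which does not show that UNC-62 was absent.

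A gene's window ran from 5 kb upstream of its 5′ end to 1 kb past its 3′ end, and a region counted where its midpoint lay inside. The gene table gives no strand. Each gene was therefore read in both orientations, and counts are given for a window of at least 1 strand (an upper limit of the rule) and for the windows of both strands (a lower limit). Distances carry the offset between WS220 and the WBcel235 gene table, which was not measured.

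UNC-62 regions lay in the windows of a minority of the intestine effector genes, and with 8 genes the counts were not tested against the background. In the series list 2 of 8 had a region, pho-1 and erm-1, for at least 1 strand, against 52.2% of all protein-coding genes. For both strands it was 1 of 8, erm-1, against 31.4%. Among all genes, noncoding ones included, 46.9% had one for at least 1 strand. In replicate 1 the count was 3 of 8 against 51.5% for at least 1 strand and 2 of 8 against 30.5% for both strands. In replicate 2 it was 1 of 8 against 27.5%, and 0 of 8 against 13.5%.

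A region in both replicate lists was found for pho-1 alone, 1 of 8, against 26.9% of protein-coding genes for at least 1 strand. This share did not require that the regions of the replicates overlap or lie in the window of the same strand. For both strands the count was 0 of 8, against 13.0%. The other 5 genes, ifb-2, act-5, asp-1, cpr-6 and opt-2, had no region in any of the 3 lists in the window of either strand, 5 of 8 against 44.0% of protein-coding genes. The shares with a region among the intestine effector genes were below the background, but with 8 genes this difference was not tested. The median gene length was 3322 bp for the intestine effector genes and 2006 bp for all protein-coding genes, and a longer gene has a longer window.

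**Figure D1:**
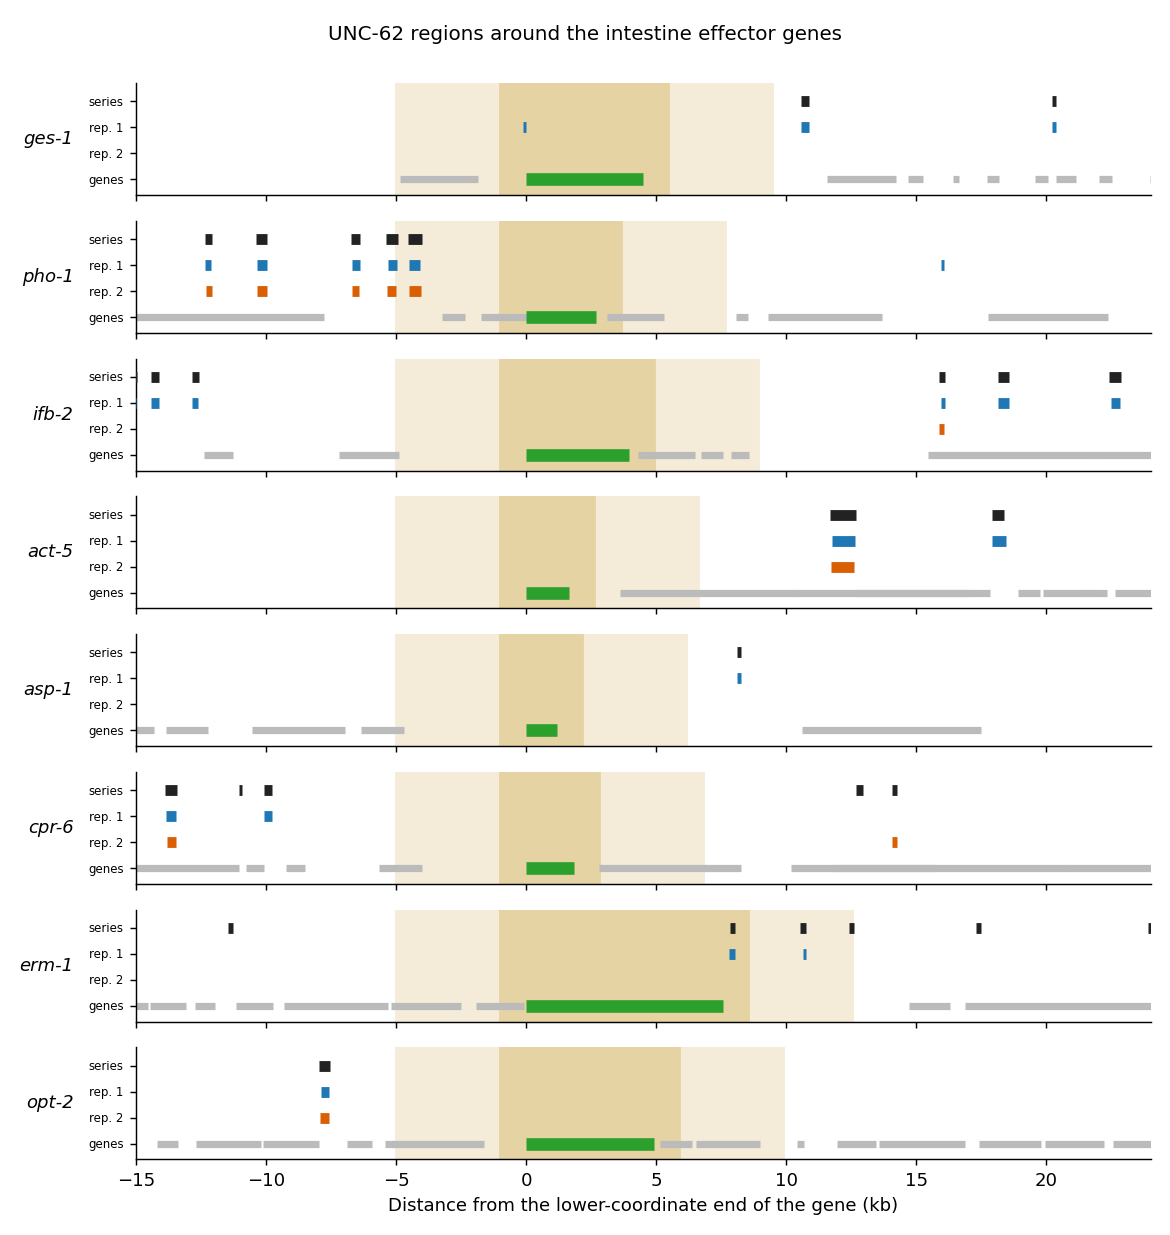
UNC-62 regions of the series list (black), replicate 1 (blue) and replicate 2 (orange) around each intestine effector gene (green), with other protein-coding genes in grey. The horizontal axis is the distance in kb from the gene's lower-coordinate end; the pale band is the window of at least 1 strand and the darker band its part common to both strands. Regions fall in the bands at ges-1, pho-1 and erm-1, and the bands of the other 5 genes are empty.

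The brush border genes were erm-1, act-5 and ifb-2. The protein of erm-1 belongs to the ezrin, radixin and moesin family and links the membrane at the lumen to actin. It had the closest region of the series list. This region, I 5291840 to 5292049 (210 bp), had a deposited value of 1.73e-12 and rank 2306 of 7964. Its midpoint lay 0.34 kb beyond the higher-coordinate end of the gene, so it belongs to the window whichever strand erm-1 is on.

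Replicate 1 held the same place, I 5291806 to 5292031, with a value of 1.30e-07 and rank 2575 of 7782. Replicate 2 had no region there, and its nearest one was 20.2 kb from erm-1. The erm-1 region therefore rests on the series list and replicate 1. How the series list arose from the replicates is not given, so it may not be independent of replicate 1. On the same side the series list had 2 weaker regions, at 3.06 kb (I 5294536 to 5294789, value 1.13e-05) and at 4.93 kb (I 5296434 to 5296635, value 5.17e-05). These count for erm-1 if its 5′ end is the higher-coordinate one. Replicate 1 overlapped the first of them with a region ranked 7769 of 7782, close to its limit, and neither replicate held the second.

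Farther out on that side lay 3 of the strongest regions of the series list, at ranks 16, 21 and 33. Their midpoints were 21.6, 24.8 and 20.3 kb from erm-1, in the order of these ranks. All lay inside let-526, and each was found in both replicates. They lie outside the erm-1 window.

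The gene act-5 encodes the actin of the intestinal microvilli. No region of any list lay in its window. The nearest was at 10.5 kb in all 3 lists and lay within another gene, hip-1. This region, III 13616102 to 13617078 (977 bp), was among the stronger ones, with a value of 2.95e-40 and rank 406 of 7964 in the series list, 5.13e-22 in replicate 1 and 8.28e-18 in replicate 2.

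The gene ifb-2 encodes an intermediate filament protein of the terminal web, the fibrous layer under the microvilli. Its window was empty in all 3 lists, and its nearest region lay 12.0 kb away in the series list, the farthest of the 8. That region, II 5766044 to 5766293 (value 4.11e-06), lay within ifb-1, another intermediate filament gene. Replicate 1 overlapped it with a value of 0.000573 and replicate 2 with 0.000253. On the other side of ifb-2 the nearest regions of the series list had hlh-14, a bHLH factor gene, as their nearest coding gene.

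The digestive enzyme genes were ges-1, pho-1, asp-1 and cpr-6. The gut esterase gene ges-1 is a classical marker of intestinal differentiation in the embryo. The series list had no region in its window. Its nearest one was 6.23 kb away on the higher-coordinate side, V 1438228 to 1438514 (value 2.41e-07), and had R09B5.11 as its nearest coding gene.

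Replicate 1 did hold a region next to ges-1, V 1427524 to 1427547, with its midpoint 0.118 kb from the lower-coordinate end. It was 24 bp wide, against a median of 275 bp in that list, and its value of 0.00844 ranked 7556 of 7782. That value is above the limit of both other lists, and neither had a region overlapping it. The nearest region of replicate 2 was 39.3 kb from ges-1. The call at ges-1 thus stands among the weakest of replicate 1 and was not found again.

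The gene pho-1 encodes an acid phosphatase of the intestine. Among the intestine effector genes it had the strongest region in a window and the one found in both replicates, II 5228604 to 5229133 (530 bp). The value was 5.32e-24 in the series list (rank 942 of 7964), 4.67e-15 in replicate 1 (rank 1018 of 7782) and 4.10e-08 in replicate 2 (rank 969 of 3138). Its midpoint lay 4.29 kb beyond the lower-coordinate end of pho-1, so it counts if that is the 5′ end.

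Other genes lie between this region and pho-1, or nearer to it. The nearest genes were the noncoding C34F11.10 and C34F11.11 at 0.676 kb, and the nearest coding gene was EGAP2.2 at 1.03 kb. A further 4 regions found in both replicates followed on the same side, from 5.16 to 12.2 kb. The first of these, II 5227774 to 5228210 (value 1.01e-17), missed the window by its midpoint. The 2 farthest of the 4 lay within dsh-1, a Dishevelled gene of the Wnt pathway.

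The gene asp-1 encodes an aspartic protease and cpr-6 a cysteine protease of the cathepsin B class. Neither had a region in its window in any list. For asp-1 the nearest was V 19057673 to 19057832, at 7.0 kb, with a value of 1.72e-05 in the series list and 0.000407 in replicate 1. The nearest region of replicate 2 was 75.2 kb from asp-1, the longest distance of the 8 genes in that list.

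For cpr-6 the nearest region of the series list was X 6597129 to 6597430 at 9.93 kb, with a value of 9.37e-12 and 3.88e-09 in replicate 1. It lay 0.159 kb from ttr-6, a transthyretin-like gene. Replicate 2 did not hold it, and its nearest region was on the other side of cpr-6 at 12.3 kb.

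The nutrient uptake gene was opt-2, which encodes a peptide transporter of the membrane at the lumen. Its window was empty in all 3 lists. All 3 had their nearest region at the same place, 7.74 to 7.77 kb from the gene on its lower-coordinate side. In the series list this was X 6448916 to 6449302, with a value of 5.41e-09, 0.193 kb from fah-1, a gene of tyrosine breakdown. The value was 4.97e-05 in replicate 1 and 0.000119 in replicate 2. It was the one region of the series list within 25 kb of opt-2.

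Measured by distance in the series list, the intestine effector genes had quartiles of 5.75 and 10.1 kb, a narrower span than that of all protein-coding genes. The median distance to the nearest series region was 7.38 kb for the 8 genes, between 0.34 and 12.0 kb, and 4.52 kb for all protein-coding genes, with quartiles of 0.668 and 12.8 kb. Of the 8, 1 was closer than that lower quartile, erm-1, and none was beyond the upper one. In replicate 1 the medians were 7.37 kb and 4.66 kb. In replicate 2 the order was the other way, with 12.2 kb for the intestine effector genes and 14.0 kb for all protein-coding genes.

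The surroundings of these genes were not empty. Within 25 kb the median number of series regions was 4 for the intestine effector genes and 4 for all protein-coding genes. It ranged from 1 at opt-2 and 2 at ges-1, act-5 and asp-1 to 10 at erm-1. Together these stretches held 37 regions, of which 33 lay beyond 5 kb, and 13 of the 37 (35.1%) were found in both replicates, against 36.7% of the whole series list.

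**Figure D2:**
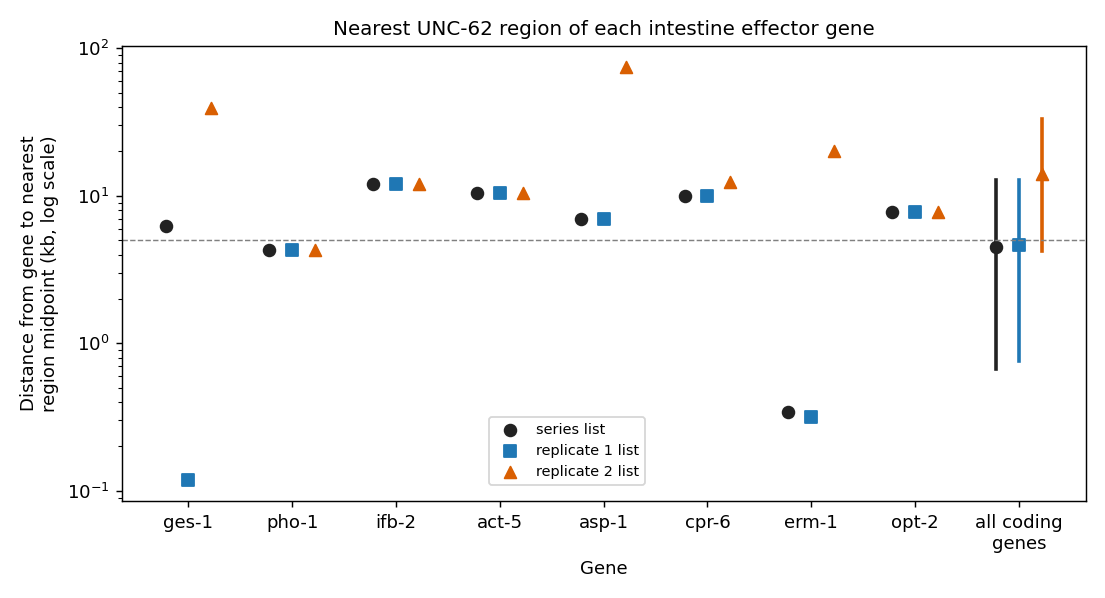
Distance in kb (log scale) from each intestine effector gene to the midpoint of the nearest UNC-62 region, in the series list (circles), replicate 1 (squares) and replicate 2 (triangles). At the right, the symbol is the median of all protein-coding genes and the line spans their quartiles; the dashed line is 5 kb. Replicate 1 is closest at ges-1 (0.118 kb), and replicate 2 is farthest at asp-1 (75.2 kb).

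The same rule was applied to 6 lists of related genes, 48 in all, of which 46 were in the gene table; opt-1 and opt-3 were not. Of the 46, 25 (54.3%) had a series region for at least 1 strand, near the 52.2% of all protein-coding genes, and 12 did for both strands, against 31.4%. A region in each of the 3 lists was found for 8 of the 46, ifo-1, act-1, act-2, act-3, act-4, asp-4, pho-9 and pho-12, against 26.8% of protein-coding genes. The 4 other actin genes, known from muscle, are among these 8 and among the 25. The windows of act-1, act-2 and act-3 overlap, so the pooled counts lean on few places. None of the 3 lists had one for 18 of the 46, against 44.0%.

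Those 18 were ifc-1, ifd-1, ifp-1 and bbln-1 of the terminal web list, asp-5, cpr-3, cpr-4 and cpr-5 of the proteases, and nhx-2 and pgp-3 of the transporters. They also included mtl-1, mtl-2, lys-7 and lys-8 of the metal and defence list, and the acid phosphatases pho-4, pho-5, pho-6 and pho-10. The gene pho-4 lies next to pho-1, and the pho-1 region was 7.39 kb from it.

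By list, series regions for at least 1 strand were found at 4 of 8 genes of the lumen and terminal web, 5 of 10 other proteases, 3 of 5 transporters, 4 of 8 metal and defence genes and 5 of 11 other acid phosphatases. These shares ran from 45.5% to 60%, near the 52.2% of all protein-coding genes. In both replicates the counts were 1, 1, 0, 0 and 3, against 26.9% of protein-coding genes. For 1 of these 3 acid phosphatases, pho-13, the 2 replicates had different regions on opposite sides of the gene. The replicate 1 region lay 4.99 kb off the lower-coordinate end and the replicate 2 region 4.09 kb off the higher-coordinate end. No single strand's window takes in both. The terminal web gene was ifo-1, whose product organises the intestinal filaments. Its strongest region, IV 7319809 to 7320663 (855 bp), had a value of 3.10e-46, rank 300 of 7964, and lay 0.498 kb from the gene. The midpoint of this region lay inside F42C5.16, and ifo-1 was the nearest coding gene. The protease gene was asp-4, with a region at X 13221159 to 13221823 (value 2.23e-15) 0.029 kb from the gene. Both ifo-1 and asp-4 keep their region whichever strand they are on. Of the acid phosphatases, the series region of pho-9 lay within gldi-9, 2.96 kb from pho-9. The pho-12 region found in both replicates lay 0.176 kb from ify-1 and 3.49 kb from pho-12.

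**Figure D3:**
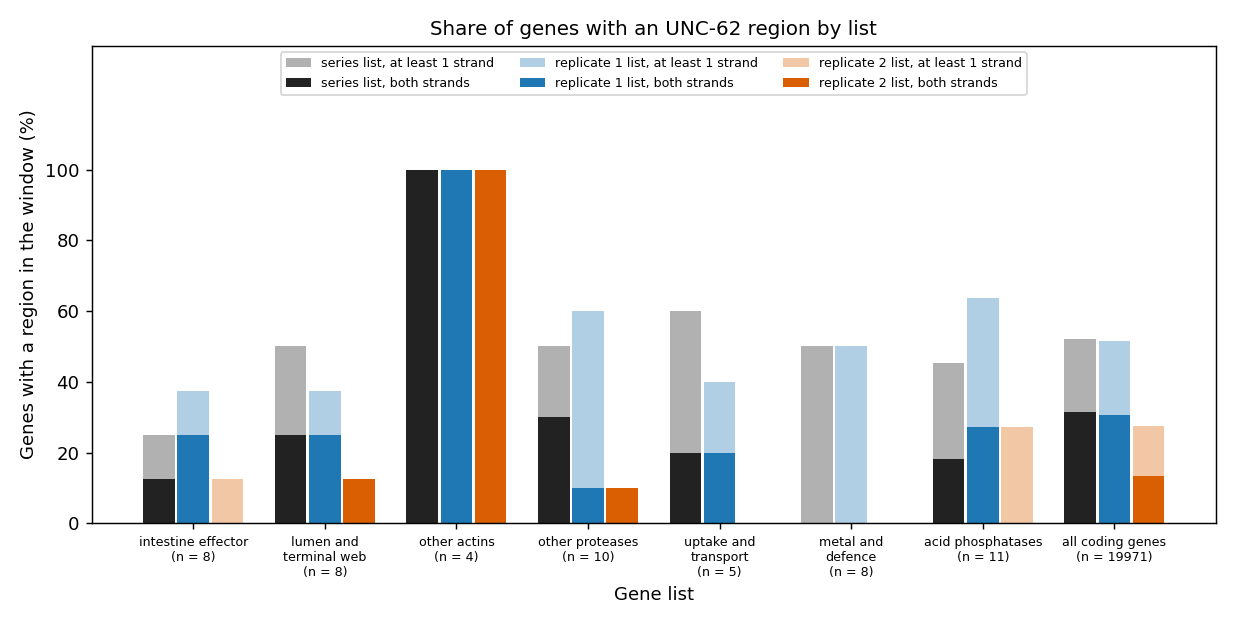
Percentage of genes with an UNC-62 region in the window, for the intestine effector genes, 6 related lists and all protein-coding genes, in the series list (black), replicate 1 (blue) and replicate 2 (orange). Pale bars count the window of at least 1 strand and solid bars the windows of both strands; n is the number of genes in the gene table. The 4 other actin genes are at 100% in every list, and the intestine effector genes at 25% in the series list.

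The other actin genes stood in contrast to act-5. While act-5 had 0 regions in each list, act-1, act-2, act-3 and act-4 had regions in all 3 lists for both strands. The first 3 of these are neighbours on V and act-4 is on X, and all are known from muscle. For both strands, 13.0% of all protein-coding genes had a region in both replicate lists. The windows of act-1 to act-4 held 13 distinct regions of the series list, 15 of replicate 1 and 12 of replicate 2. Some had a nearer gene. At act-4, X 4956936 to 4958078 lay 0.089 kb from M03F4.4 and 3.11 kb from act-4. There too, X 4965518 to 4965997 lay within M03F4.6, 1.34 kb from act-4. Of the 13 series regions, 10 were found in both replicates, against 36.7% of the whole series list. They came from the act-1, act-2 and act-3 cluster (9) and from act-4 (4). Regions this close are not separate observations, and the difference was not tested.

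The strongest of these lay in act-4, X 4960301 to 4962726 (2426 bp), with a value of 2.24e-83 and rank 70 of 7964. Replicate 1 had a value of 1.05e-62 there, and replicate 2 had 2 regions there, with values of 7.17e-18 and 7.71e-05. The windows of act-1, act-2 and act-3 overlap and together held 9 regions of the series list, of which 7 lay in more than 1 of these windows, so these genes are not separate observations. The strongest of the 9 was V 11083633 to 11084160, in the window of act-1, with a value of 3.66e-25. Actin genes are near-identical in their coding parts, and the treatment of reads that match several places is not stated. Any effect of such reads on these regions was not tested. The difference between act-5 and the other actin genes, 1 gene against 4, was not tested. Both groups were chosen with earlier results of these data known.

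**Figure D4:**
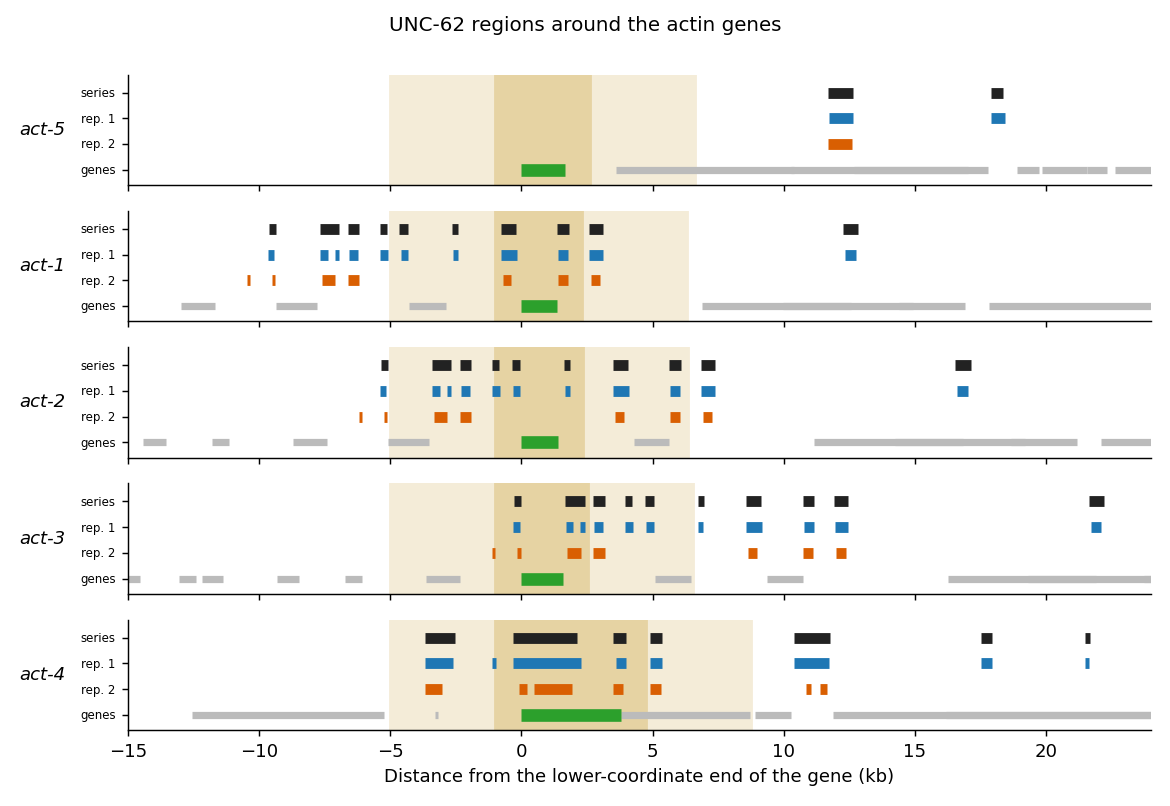
UNC-62 regions around act-5 and the 4 other actin genes, with colours, bands and distance axis (kb from the lower-coordinate end of the gene) as in the map of the intestine effector genes. Regions of all 3 lists lie in the bands of act-1, act-2, act-3 and act-4 and none in those of act-5; the windows of act-1, act-2 and act-3 overlap, so 7 of their 9 series regions appear in more than 1 of them.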

How the data were processed

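UNC-62 ChIP-seq regions of embryos were taken from 3 lists, 1 for each ChIP replicate and 1 for the series. Per the file headers and source column, the authors called regions with PeakSeq on WormBase WS220. The unnamed deposited value was read as a p-value or q-value. How reads were aligned and filtered, how the series list arose and whether replicates were separate cultures is not given in the sources at hand. Depth is unknown.

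Gene positions came from the RefSeq table of WBcel235, which has no strand, so both orientations were used. Lists shared a region when regions overlapped by at least 1 bp. There are no sample values to test, so the results are counts beside the share of all 19971 protein-coding genes. The window counting was tested on simulated data. Python 3.11.15, numpy 2.4.6, pandas 2.3.3 and scipy 1.17.1 were used. All 8 intestine effector genes are named, and of the related lists those with a region in all 3 lists or in none. Members and lists were chosen with earlier results of these data known. The planned promoter motif counts were not run.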

Additional observations from a re-analysis of the deposited data

How the results depend on the processing

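Of 63 values under alternatives, 35 stayed and 28 moved. Staying meant lying within 1.5 times the main count, or inside the 95% exact binomial interval of the percentage of protein-coding genes. Counts and percentages have no sign, so a reversal was not possible. The main counts, for at least 1 strand, were 2 genes and 4 regions of the series list, with 1 gene and 1 region in both replicates. With 2 kb upstream, with 1 kb around the gene ends, or with what holds for both strands (chosen after seeing the data), they became 1 gene and 1 region, with 0 and 0 in both replicates; the regions at pho-1 (4.29 kb) and the outer 2 at erm-1 (3.06 and 4.93 kb) then lie outside. The percentage of protein-coding genes was then 36.1%, 25.5% and 31.4% in place of 52.2%. Any overlap in place of the midpoint raised the regions in both replicates to 2, both near pho-1. Values under 1e-5 left 2 regions and 41.1%. Without replicate 1 (the replicate 2 list alone) there was 1 gene (pho-1) with 1 region, and 27.5%; without replicate 2 (the replicate 1 list alone) there were 3 genes with 4 regions, ges-1 added, and 51.5%. Counting regions whose nearest gene end was the gene's own (chosen after seeing the data, as the planned nearest 5′ end needs the strand) left 1 gene and 1 region, at erm-1. The related lists had 25 genes, and 12 for both strands, 14 within 2 kb, 9 within 1 kb of an end and 15 under 1e-5, all chosen after seeing the data. Moving windows by 100 bp either way changed no count of intestine effector genes, and moving them to lower coordinates left 3 regions. No paired analysis was possible because only ChIP lists were at hand. The promoter alternative was not run, for want of sequence. Depth, which is unknown, limits what an empty window shows.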
